A study of Mus musculus with 8 samples.

Results

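Clusterin and 5 small heat shock protein genes were followed in pancreas buds of mouse embryos whose pancreatic progenitors lack the Hippo kinase genes *Lats1* and *Lats2*, and in WT buds. The 6 genes, *Clu*, *Cryab*, *Hspb1*, *Hspb2*, *Hspb6* and *Hspb8*, were taken by symbol from the 24341 genes of the expression table. They were selected with the values of this same genotype comparison already known, so their differences between genotypes are described here and carry no test.

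Total RNA from individual buds at E11.0 (about 40 somites) was sequenced, 5 of WT and 3 of Lats1/2PanKO genotype. The labels give CD1 as the strain of every sample and WT or *Lats1/2* null as the genotype. In Lats1/2PanKO embryos an early-acting Cre under the *Pdx1* promoter recombines floxed *Lats1* and *Lats2* in pancreatic progenitors, so other cells of the bud keep both genes. Mutant embryos of the study were in general compared with WT or heterozygous littermates, and which kind of littermate each WT bud came from is not given in the sources used here. Mesenchyme was taken off with forceps, yet mesenchymal transcripts remained in every library.

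Clusterin is a secreted glycoprotein that binds misfolded proteins outside the cell and restrains the terminal complement complex, and *Clu* is known as a target of TEAD, the DNA-binding partner of the Hippo effectors YAP and TAZ. Small heat shock proteins are chaperones built around an alpha-crystallin domain that hold unfolding proteins without using ATP until HSP70-type chaperones refold them. Some of them are switched on by heat shock factors under stress, while others are expressed mainly in muscle and lens.

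The level of *Lats1* was 14.1 to 16.6 FPKM (fragment counts scaled by transcript length and library size) in WT and 10.1 to 13.8 FPKM in Lats1/2PanKO libraries. *Lats2* lay at 11.6 to 14.7 FPKM and 11.1 to 13.4 FPKM. Gene-level values include exons outside the floxed part and RNA of cells that never expressed Cre, and limma called neither gene (adjusted p = 0.269 and 0.589). Of 13777 genes tested with limma, 2 passed an adjusted p of 0.05, or 0.0145%, and 1553 (11.3%) had an unadjusted p under 0.05.

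A pair of libraries stood apart. WT replicate 5 held 38 protein-coding genes more than 2-fold above every other library on the log2(FPKM + 1) scale, led by the inducible HSP70 genes, and Lats1/2PanKO replicate 3 held 76. None of the other WT libraries held any, and Lats1/2PanKO replicates 1 and 2 held 1 each. Values without WT replicate 5 or without Lats1/2PanKO replicate 3 are therefore given beside those differences that move most without them.

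*Clu* (chr14:65968483-65981545 of GRCm38, plus strand, 9 exons in its first-listed transcript) was the most abundant member. Its level was 15.4, 18.1, 15.8, 15.5 and 19.8 FPKM in WT replicates 1 to 5. In Lats1/2PanKO replicates 1 to 3 it was 69.9, 63.4 and 141 FPKM. Every Lats1/2PanKO library was above every WT library, and the lowest mutant value was more than 3 times the highest WT value. The group means were 16.9 ± 1.94 (SD, n = 5) and 91.5 ± 43.1 FPKM (SD, n = 3), a ratio of 5.41. Lats1/2PanKO replicate 3 raised this ratio, which was 3.94 without it. On the log2(FPKM + 1) scale the difference was 2.28 with a standard error of 0.23.

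*Cryab*, which encodes alpha-B crystallin, a chaperone of lens, muscle and glia that binds desmin and actin filaments, was near the limit of detection in WT buds. Its WT values were 0.135, 0.137, 0.279, 0.130 and 0.174 FPKM. The Lats1/2PanKO libraries held 1.25, 1.65 and 4.66 FPKM. Again the genotypes did not overlap. The means of 0.171 ± 0.0627 (SD, n = 5) and 2.52 ± 1.86 FPKM (SD, n = 3) stood in a ratio of 14.8, or 8.50 without Lats1/2PanKO replicate 3. *Cryab* passed the filter on low values only through the mutant libraries.

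The WT values of *Cryab* fell on steps. Scaled by what a fragment was worth in each library, they stood at 1.01, 1.00, 2.01, 1.00 and 1.02 times the smallest value, and the mutant values at 9.01, 12.8 and 35.3 times. If the smallest step is a single fragment, the WT libraries together held 6 fragments of *Cryab* and the mutant libraries 57.

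*Hspb2* lies beside *Cryab* on the opposite strand, and its product, a partner of myotonic dystrophy protein kinase in muscle, was hardly detected. It was listed at 0 in 7 of 8 libraries and at 0.291 FPKM in Lats1/2PanKO replicate 1, and it did not pass the filter. Both genes carry the same interval in the table, chr9:50751072-50756635, since their annotated transcripts overlap (*Hspb2* at 50751078-50752354 on the minus strand and *Cryab* at 50751325-50756636 on the plus strand in GENCODE). The library kit marks strand and the methods name a strand setting for the alignment. None is named for the quantification step, so how fragments from the overlap were divided is not known in detail.

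*Hspb8* encodes a chaperone that works with BAG3 in clearing damaged proteins by autophagy. It had 3.01, 4.57, 5.40, 5.27 and 5.42 FPKM in the WT libraries. Lats1/2PanKO libraries held 5.70, 6.66 and 10.7 FPKM. The genotypes did not overlap, but only narrowly, since the lowest mutant value of 5.70 FPKM sat just above the highest WT value of 5.42 FPKM. The ratio of means, 7.69 ± 2.65 (SD, n = 3) to 4.73 ± 1.03 FPKM (SD, n = 5), was 1.62 and dropped to 1.31 without Lats1/2PanKO replicate 3. *Hspb8* lies at chr5:116408491-116422864 on the minus strand.

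*Hspb1*, encoding HSP27, which is phosphorylated downstream of p38 and guards actin filaments under stress, showed no such separation. The WT values were 2.72, 4.22, 1.74, 3.37 and 8.84 FPKM. The mutant values of 4.27, 1.87 and 3.53 FPKM lay within the WT range. WT replicate 5 was more than 2 times the next highest library. With it the ratio of the Lats1/2PanKO to the WT mean was 0.771, and without it 1.07. The log2 difference of -0.20 (standard error 0.38) became 0.07 without WT replicate 5. The spread of *Hspb1* over the WT libraries was larger than that of 97.5% of tested genes. Its locus is chr5:135887919-135889563, plus strand.

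*Hspb6* encodes HSP20, a small chaperone known from smooth and heart muscle, and lies at chr7:30553302-30555439 on the plus strand. It had 1.89, 2.19, 2.65, 2.15 and 2.86 FPKM in WT libraries. In Lats1/2PanKO libraries it had 2.73, 1.19 and 2.26 FPKM. The ranges overlapped, the lowest library of all being Lats1/2PanKO replicate 2. The means, 2.35 ± 0.393 (SD, n = 5) and 2.06 ± 0.786 FPKM (SD, n = 3), gave a ratio of 0.878.

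**Figure D1:**
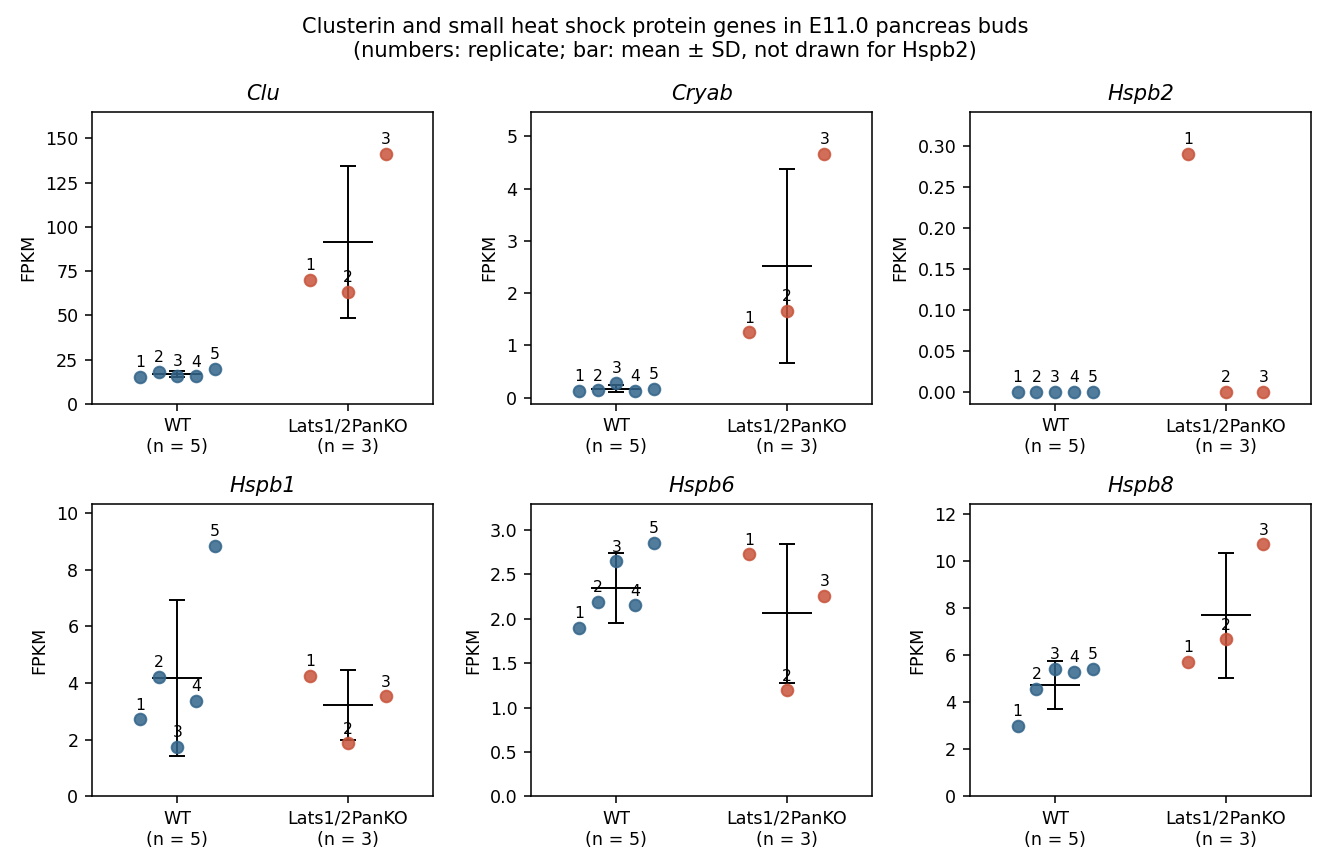
FPKM of the 6 genes in each library, on linear axes that include 0, with a different scale in each panel. Points are libraries numbered by replicate, and bars are means ± SD, left out for *Hspb2*, which was listed at 0 in 7 libraries. The mutant points of *Clu*, *Cryab* and *Hspb8* all lie above the WT points, Lats1/2PanKO replicate 3 being the highest in each, and WT replicate 5 is the highest point of *Hspb1*.

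Heat shock factors bind inverted repeats of GAA, and the RefSeq promoter windows (250 bases before to 50 after a start, GRCm38.p6) were searched for GAANNTTC, which reads alike on both strands. Windows were matched for *Hspb1*, *Hspb6* (2 starts) and *Hspb8*, and the promoter table used here held none for *Clu*, *Cryab* and *Hspb2*. The letters were found in 3 of the 4 windows, and in 7.86% of all 32851 windows. These windows are shown because *Hspb1* and the inducible HSP70 genes were highest in the same library, WT replicate 5, as described after them, and *Hspa1a* is set beside them. Capitals mark GAANNTTC. The sequences are the 250 bases before the start for *Hspb1* (chr5:135887669-135887918, plus strand), for the *Hspb6* start nearest its table entry (chr7:30553051-30553300, plus strand) and for *Hspa1a* (chr17:34972157-34972406, minus strand). For *Hspb8* they run from 250 bases before to 14 after the start (chr5:116422851-116423114, minus strand).
Hspb1: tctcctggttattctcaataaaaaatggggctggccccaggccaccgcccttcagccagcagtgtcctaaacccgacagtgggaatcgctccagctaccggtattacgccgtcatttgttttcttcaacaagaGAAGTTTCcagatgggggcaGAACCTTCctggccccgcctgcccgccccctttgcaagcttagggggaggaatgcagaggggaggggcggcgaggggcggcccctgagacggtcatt
Hspa1a: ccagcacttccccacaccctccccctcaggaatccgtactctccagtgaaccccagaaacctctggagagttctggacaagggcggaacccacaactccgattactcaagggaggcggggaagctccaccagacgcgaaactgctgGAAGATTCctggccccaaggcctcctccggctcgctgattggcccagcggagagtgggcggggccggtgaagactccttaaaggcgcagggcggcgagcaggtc
Hspb6: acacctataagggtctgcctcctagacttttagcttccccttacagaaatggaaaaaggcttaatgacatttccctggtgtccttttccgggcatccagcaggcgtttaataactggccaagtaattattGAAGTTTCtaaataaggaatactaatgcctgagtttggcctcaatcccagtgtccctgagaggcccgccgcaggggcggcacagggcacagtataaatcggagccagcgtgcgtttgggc
Hspb8: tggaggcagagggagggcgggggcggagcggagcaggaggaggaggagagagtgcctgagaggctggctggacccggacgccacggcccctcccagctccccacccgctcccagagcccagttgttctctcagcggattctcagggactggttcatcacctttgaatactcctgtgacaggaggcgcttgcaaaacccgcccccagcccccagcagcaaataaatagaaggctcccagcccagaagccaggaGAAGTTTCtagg

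Counting from the start, the matches in *Hspb1* begin at -117 and -97, that in *Hspb6* at -120, that in *Hspb8* at 3 and that in *Hspa1a* at -104. *Hspb1* was the member with 2 matches. The TEAD core GGAATG, searched on both strands, was found in *Hspb1* at -49 and in none of the other member windows, and 14.7% of all windows hold it. A match describes letters in a window and not a bound site.

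In WT replicate 5 the HSP70 genes *Hspa1a* and *Hspa1b* reached 53.6 and 69.6 FPKM. In the other 7 libraries *Hspa1a* lay at 0.0362 to 0.422 FPKM and *Hspa1b* at 0.175 to 0.901 FPKM. That is 127 and 77.3 times the highest other library, the largest and second largest such ratio of 12306 protein-coding genes tested, and *Hspb1* ranked 50 with 2.07 times. These genes were picked out after their values were seen. Their upstream sequences share 247 of 250 bases, and reads of such near-identical copies may be uncertain between them, so the pair is better read as one.

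The genes ranked next in that library were *Adm*, at 9.59 FPKM against at most 0.231 FPKM elsewhere, *Mgarp*, *Edn1* and *Bnip3*, at 75.6 FPKM against 9.26 to 14.2 FPKM. *Adm* and *Bnip3* are known to be induced by low oxygen, as is the glucose transporter gene *Slc2a3*, which had 16.9 FPKM against 2.49 to 4.11 FPKM. Whether this bud was short of oxygen was not tested. Most of the other listed chaperones did not follow. The lists were not split into inducible and constitutive genes. Of the 24 cytosolic and mitochondrial chaperones 6 (25%) were highest in WT replicate 5, *Hspa1a* and *Hspa1b* included, and 11 (45.8%) were lowest there. Of 79 tested genes on the chaperone and stress lists, 35 had their lowest value of the 8 libraries there. That is 44.3%, against 19.7% of all tested genes. WT replicate 5 was the highest library for 14 of the 79, or 17.7%, against 22.4% of all tested genes. For the endoplasmic reticulum list it was the lowest library for 14 of 20 genes and the highest for 2, *Atf4* and *Trib3*. Among 9 tested immediate early genes it was the highest for 4 (*Fos*, *Junb*, *Ier3* and *Dusp1*), or 44.4%, and the lowest for 1, *Myc*.

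Among the members, WT replicate 5 was thus the highest library for *Hspb1* and *Hspb6* and the highest WT library for *Clu* and *Hspb8*. *Clu* in that library, at 19.8 FPKM, was still below the lowest mutant value of 63.4 FPKM. A fragment was worth 1.28 times as much in this library as in WT replicate 1, against 0.970 to 1.04 times in the others, so it was the shallowest by this measure. The part of depth in its values was not tested.

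**Figure D2:**
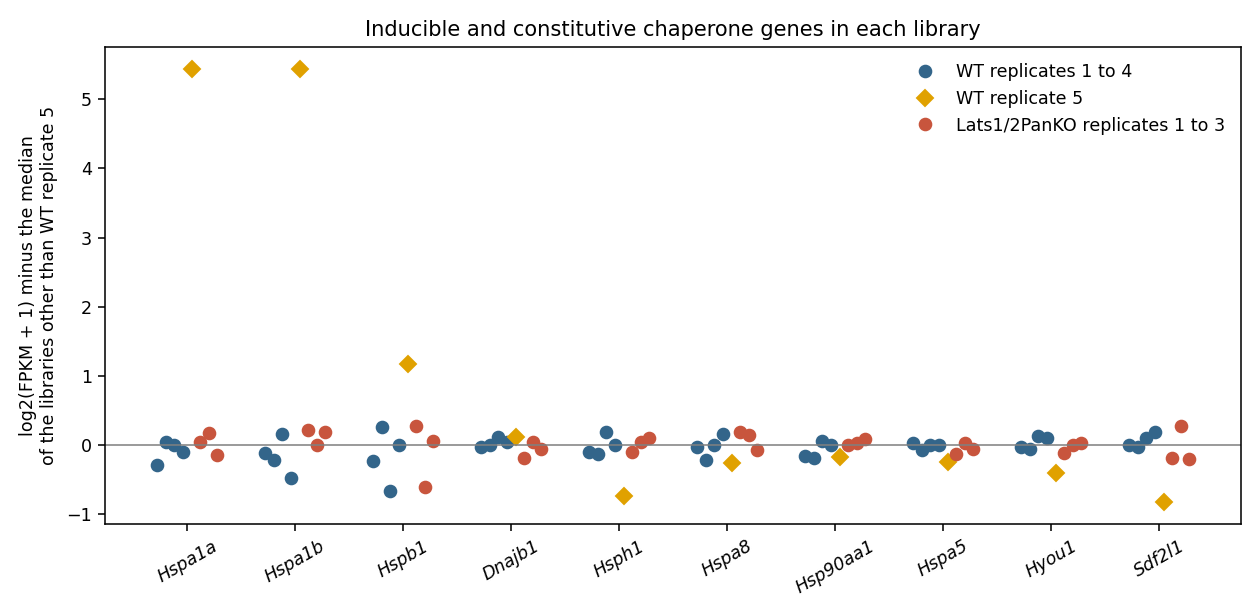
Values of log2(FPKM + 1) for 10 chaperone genes in each library, minus the median of the 7 libraries other than WT replicate 5, with genes chosen after their values were seen. Diamonds are WT replicate 5 and circles the other libraries. The diamonds of *Hspa1a*, *Hspa1b* and *Hspb1* lie above all circles, as does that of *Dnajb1* by a hair. Those of *Hsph1*, *Hspa5*, *Hyou1* and *Sdf2l1* lie below them, as does that of *Hspa8* narrowly. The diamond of *Hsp90aa1* lies among the circles.

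By count, 3 of the 6 genes (*Clu*, *Cryab* and *Hspb8*) were higher in every mutant library than in any WT library, against 4.46% of all tested genes that were higher without overlap and 7.51% without overlap in either direction. *Clu* was the 1 member of the 5 tested that limma called, against 0.0145% of all tested genes. That call was lost when any single WT library or Lats1/2PanKO replicate 1 was left out, and kept without either of the other mutant libraries. Because the genes were selected on this comparison, nothing follows from these counts. The order of levels within WT buds, in FPKM, was *Clu*, *Hspb8*, *Hspb1*, *Hspb6*, *Cryab* and *Hspb2*. The neighbours *Hspb8* and *Hspb1*, and *Hspb1* and *Hspb6*, had overlapping WT ranges. In the mutant libraries *Cryab* at 1.25 to 4.66 FPKM overlapped *Hspb6* at 1.19 to 2.73 FPKM.

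**Figure D3:**
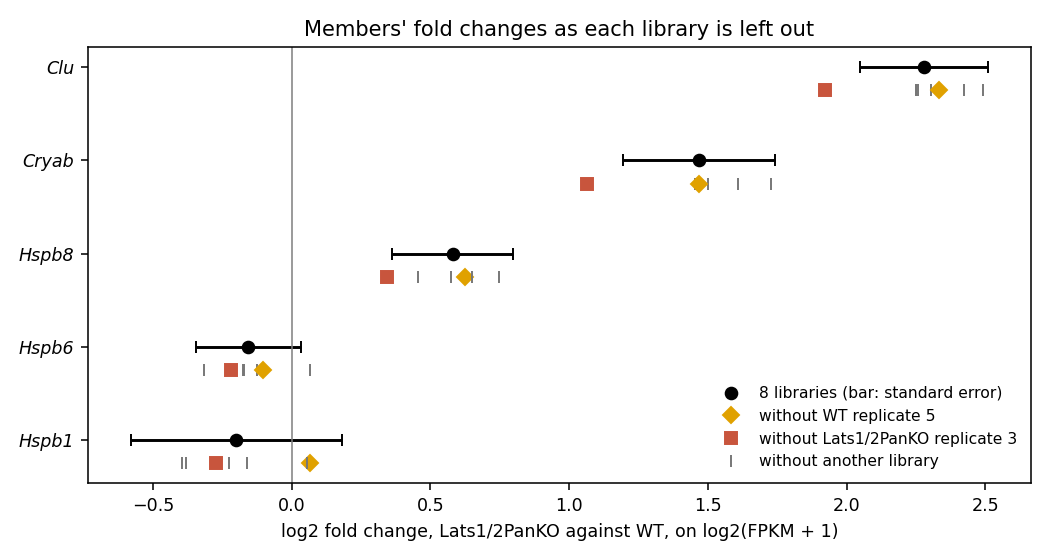
Differences of mean log2(FPKM + 1), Lats1/2PanKO minus WT, for the 5 tested members. Black points with bars are all 8 libraries with the standard error, and the marks under each are the value with 1 library left out. *Clu* stayed between 1.92 and 2.49, *Cryab* between 1.06 and 1.73 and *Hspb8* between 0.34 and 0.75, while *Hspb1* and *Hspb6* fell on both sides of 0.

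Summed markers of epithelium and of pancreatic progenitors were higher in every mutant library than in any WT library. Epithelial markers, a list of 10 genes led by *Krt18* with *Epcam* and *Cdh1* among them, summed to 180 to 245 FPKM in WT libraries and to 432, 378 and 919 FPKM in Lats1/2PanKO replicates 1 to 3. All 10 had a higher mean in the mutant libraries, 9 of them with an unadjusted p under 0.05, although limma called 0 after adjustment (smallest adjusted p = 0.0747). Pancreatic progenitor markers, led by *Sox9*, summed to 92.6 to 143 FPKM in WT and 162 to 404 FPKM in mutant libraries. Of these 10 genes, 9 had a higher mean in mutant libraries and 1, *Ptf1a*, a lower one. Only 5 were higher without overlap, *Pdx1* not among them. At an unadjusted p under 0.05 there were 5, and limma called 0 (smallest adjusted p = 0.116). In RNA from all cells of a dissected bud together, more cells of a type and more RNA per cell cannot be told apart.

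*Clu* and *Cryab* were therefore also set against the summed epithelial markers of the same library, a comparison added after the values were seen. *Clu* stood at 7.23, 7.52, 8.79, 6.996 and 8.06 FPKM per 100 FPKM of epithelial markers in WT libraries and at 16.2, 16.8 and 15.4 in Lats1/2PanKO libraries. On this measure the mutant libraries lay close together, replicate 3 included, at 2.09 times the WT mean. Against *Epcam* alone the values of *Clu* were 0.387 to 0.628 FPKM per FPKM in WT and 1.03 to 1.13 in mutant libraries. *Cryab* had 0.0570 to 0.155 per 100 FPKM of epithelial markers in WT and 0.289, 0.438 and 0.507 in mutant libraries, a ratio of 5.08. The mean log2(FPKM + 1) of the 10 markers was also subtracted in place of dividing by their sum. The log2 difference was then 1.03 for *Clu* and 0.21 for *Cryab*, so the excess of *Cryab* over the markers depends on the measure. The added 1 in the subtraction compresses *Cryab*. Before subtraction its log2 difference was 1.47, and 3.08 with a pseudocount of 0.1.

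The other members gave a different picture when divided by the summed markers. *Hspb8* overlapped between genotypes, 1.41 to 3.00 per 100 FPKM of epithelial markers in WT and 1.16 to 1.76 in mutant libraries. *Hspb1* overlapped too, at 0.967 to 3.61 and 0.384 to 0.987. *Hspb6* was at 0.889 to 1.47 in WT and 0.246 to 0.631 in mutant libraries, lower without overlap. The summed markers were higher in every mutant library, so a gene of even FPKM also comes out lower on this division. Before division *Hspb6* overlapped between genotypes, with a ratio of means of 0.878, so its lower place does not describe a loss of *Hspb6* FPKM. The genotypes were separate for *Clu* and *Cryab* with and without this division, and for *Hspb8* only without it. The part of bud makeup in these differences was not tested.

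**Figure D4:**
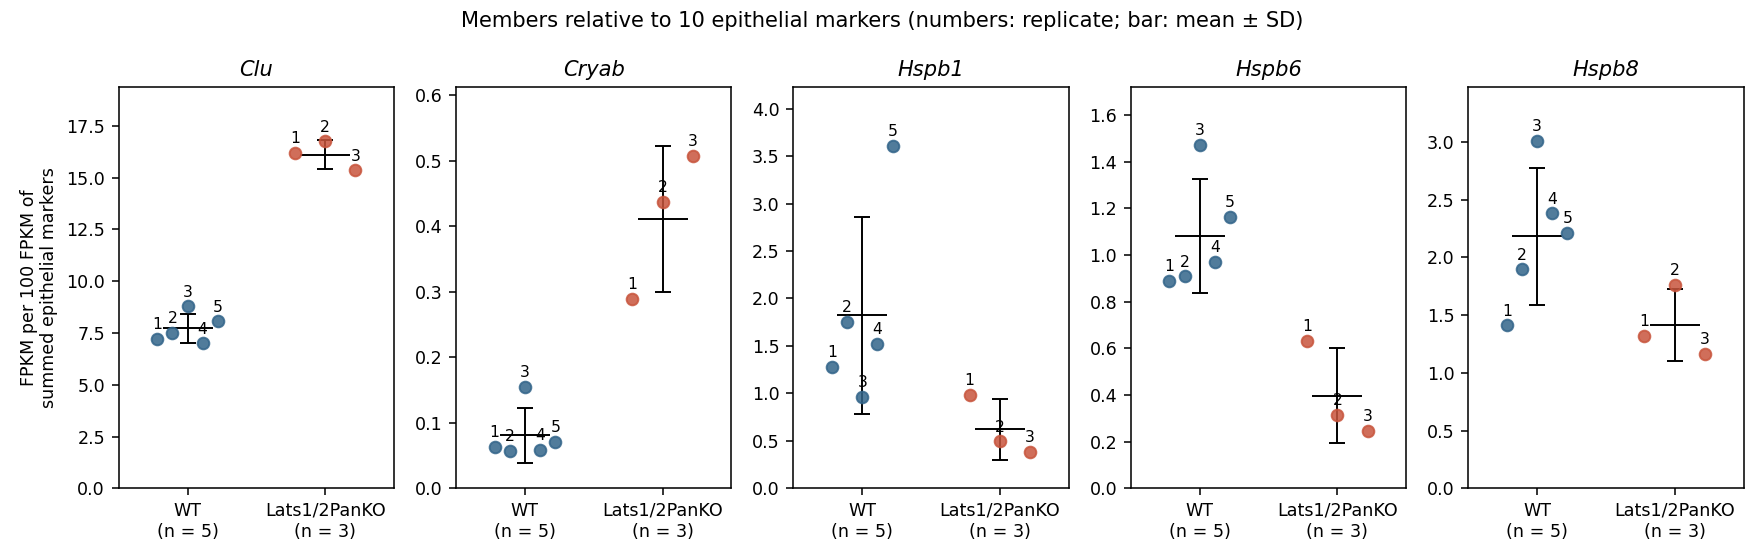
FPKM of 5 members per 100 FPKM of summed epithelial markers in each library, on linear axes from 0. Points are libraries numbered by replicate and bars are means ± SD. *Clu* and *Cryab* are higher in all mutant libraries, *Hspb6* is lower in all of them, and *Hspb1* and *Hspb8* overlap. The summed markers are higher in every mutant library, which alone lowers a gene of even FPKM.

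Summed markers of muscle, in which small heat shock proteins are usually abundant, overlapped between genotypes. Striated muscle markers summed to 30.3 to 44.4 FPKM in WT and 20.8 to 36.3 FPKM in mutant libraries, most of it *Des*, and *Acta1*, *Myog*, *Myod1* and *Nppa* were at 0 in some libraries. Smooth muscle markers, led by *Smtn*, summed to 19.6 to 31.3 and 22.2 to 38.7 FPKM. Mesenchymal markers, led by *Vim*, summed to 985 to 1143 FPKM and 840 to 1013 FPKM, and mesothelial markers, led by *Wt1*, to 7.99 to 17.2 and 4.86 to 8.89 FPKM. These sums overlapped, but 9 of 11 tested mesenchymal markers had a lower mean in mutant libraries (median log2 difference -0.39) and 2 a higher one, *Vim* among them at 0.27. At an unadjusted p under 0.05 there were 2 lower and 1 higher, *Pdgfra* was lower without overlap, and limma called 0 (smallest adjusted p = 0.292). All 3 tested mesothelial markers had a lower mean (median -0.48), 1 of them at an unadjusted p under 0.05, and limma called 0.

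Of the remaining lists, liver markers (mostly *Ttr*) summed to 98.2 to 169 FPKM in WT and 130 to 373 FPKM in mutant libraries, and the highest was again Lats1/2PanKO replicate 3. Endothelial markers, led by *Cdh5*, summed to 107 to 166 and 73.2 to 116 FPKM. All 8 had a lower mean in mutant libraries (median log2 difference -0.43), 3 of them at an unadjusted p under 0.05, and limma called 0 (smallest adjusted p = 0.238). Those of red blood cells (*Hbb-y*) summed to 2620 to 15691 and 7926 to 10113 FPKM, of leukocytes (*Cd68*) to 5.40 to 15.6 and 10.8 to 13.7 FPKM, of nerve and neural crest (*Tubb3*) to 14.3 to 20.3 and 16.1 to 30.5 FPKM, and of stomach and duodenum (*Hnf4a*) to 4.89 to 7.63 and 5.56 to 13.0 FPKM. Their part in the members' values was not tested.

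The genes whose profile over the 8 libraries was nearest to each member were found by the root mean square difference in log2(FPKM + 1), each gene centred on its own mean. Nearest to *Clu* were *Ankrd1* (0.192), a cardiac ankyrin repeat gene and YAP target, *BC021891* (0.221) and *Lurap1l* (0.261). Nearest to *Cryab* were *Krt7* (0.0728), a keratin of ducts and simple epithelia, *Wnt7b* (0.181), a secreted Wnt ligand, and the tight junction gene *Cldn4* (0.192). *Krt7* had 9.92 to 12.2 FPKM in WT and 23.7, 24.3 and 58.4 FPKM in mutant libraries. The added 1 flattens genes near 0, so a near profile does not mean a like ratio of means. That ratio was 14.8 for *Cryab*, while *Krt7* had means of 10.8 FPKM in WT and 35.5 FPKM in mutant libraries. *Ankrd1*, nearest to *Clu*, had means of 0.0124 and 4.47 FPKM. *Hspb8* was nearest to *Dll3* (0.0690), a Notch pathway ligand, *Igfbpl1* (0.119) and *Pla2g12a* (0.139). *Hspb6* was nearest to *Mbip* (0.111), *Ptar1* (0.112) and *Osgepl1* (0.124), and *Hspb1* to *3010001F23Rik* (0.268), *Gm10677* (0.282) and *Mks1* (0.289).

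The genes on either side of the members in the genome were read as well. Beside *Cryab* and *Hspb2*, *2310030G06Rik*, which ends 4550 bases before their shared interval, had 1.68, 2.18, 1.56, 1.37 and 0.570 FPKM in WT and 2.93, 3.08 and 9.29 FPKM in mutant libraries. Its groups did not overlap either, with a log2 difference of 1.19 (standard error 0.34) that limma did not call (adjusted p = 0.269). The ratio of its means was 3.46, and 2.04 without Lats1/2PanKO replicate 3. On the other side, 6192 bases away, *1110032A03Rik* differed by -0.06 (adjusted p = 0.915).

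The genes flanking *Clu* were *Scara3* (0.13, adjusted p = 0.741) and *Gulo* (0.31, adjusted p = 0.756). *Srrm3* and *Ywhag* beside *Hspb1* differed by 0.10 and 0.04, and *Lin37* beside *Hspb6* by 0.27 (adjusted p = 0.556). *Gm38670* was at 0 in every library, and *B230112J18Rik* and *Srrm4* beside *Hspb8* did not pass the filter.

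The other chaperone and stress genes were near the background of all genes. Of the 79 tested, 3 (*Mapkapk2*, *Dnajc3* and *Ier2*) were higher in every mutant library than in any WT library, or 3.80% against 4.46% of all tested genes. Of 94 genes on 8 lists, these 79 passed the filter and limma called 0 after adjustment, with 10 at an unadjusted p under 0.05 (7 higher and 3 lower in mutant libraries), or 12.7% against 11.3% of all tested genes. The median log2 difference over the 79 genes was 0.01, and -0.01 over all tested genes. The smallest adjusted p was 0.196.

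Of the remaining small heat shock protein genes only *Hspb11*, which encodes a ciliary transport protein rather than a typical chaperone, passed the filter. It had 12.9 to 21.1 FPKM in WT and 9.38 to 13.4 FPKM in mutant libraries, a log2 difference of -0.62 that limma did not call (adjusted p = 0.287). *Cryaa*, *Hspb3*, *Hspb7*, *Hspb9* and *Odf1* did not pass. The heat shock factor genes *Hsf1* and *Hsf2* differed by 0.04 (adjusted p = 0.909) and -0.17 (adjusted p = 0.498).

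Cytosolic and mitochondrial chaperones had a median log2 difference of 0.01, with 17 of 24 genes higher and 7 lower, and 1 at an unadjusted p under 0.05. *Hspa2* (0.46, adjusted p = 0.425, a ratio of means of 1.55 that was 1.20 without Lats1/2PanKO replicate 3), *Serpinh1*, the collagen chaperone (-0.20, adjusted p = 0.553), and *Dnajb1*, the HSP40 partner of HSP70 (-0.12, adjusted p = 0.582), came nearest to the threshold. For the partners of small heat shock proteins, 10 of 12 were higher, 3 of them at an unadjusted p under 0.05, and limma called 0. *Mapkapk2*, the kinase that phosphorylates HSP27, differed by 0.25 (adjusted p = 0.325), its upstream kinase gene *Mapk14* by 0.31 (adjusted p = 0.420) and the co-chaperone gene *Bag2* by 0.25 (adjusted p = 0.322). *Bag3*, the partner of HSPB8, had means of 20.8 FPKM in WT and 17.2 FPKM in mutant libraries (adjusted p = 0.493).

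In the endoplasmic reticulum list 10 genes were higher and 10 lower, with 0 at an unadjusted p under 0.05 and limma calling 0. *Dnajc3* (0.24, adjusted p = 0.582), *Dnajb9* (-0.16, adjusted p = 0.714) and *Creld2* (0.14, adjusted p = 0.752) came first by p. The clusterin receptor genes *Vldlr* (-0.32, adjusted p = 0.741), *Lrp8* (0.14, adjusted p = 0.807) and *Lrp2* (-0.12, adjusted p = 0.808) did not pass the threshold.

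The list of extracellular chaperones and complement brakes, which stand nearest to clusterin in function, split 4 to 4. At an unadjusted limma p under 0.05 there were 3 of 8 (1 higher and 2 lower), or 37.5% against 11.3% of all tested genes, and limma called 0. *Apoe*, the lipid carrier, had the smallest p, with 50.9 to 74.4 FPKM in WT and 74.3, 106 and 128 FPKM in mutant libraries (log2 difference 0.72, adjusted p = 0.196). *Cd55*, a brake on complement convertases, differed by -0.81 (adjusted p = 0.399) and *Vtn*, vitronectin, by -0.40 (adjusted p = 0.435). Of 9 tested immediate early genes, 4 were higher and 5 lower. At an unadjusted limma p under 0.05 there were 2 (22.2%), both higher, and limma called 0. *Jun* had 23.8 to 46.9 FPKM in WT and 52.5, 46.1 and 102 FPKM in mutant libraries (0.88, adjusted p = 0.315), a ratio of means of 1.93 that was 1.42 without Lats1/2PanKO replicate 3, while *Ier2* (0.19, adjusted p = 0.390) and *Myc* (0.16, adjusted p = 0.614) differed less.

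**Figure D5:**
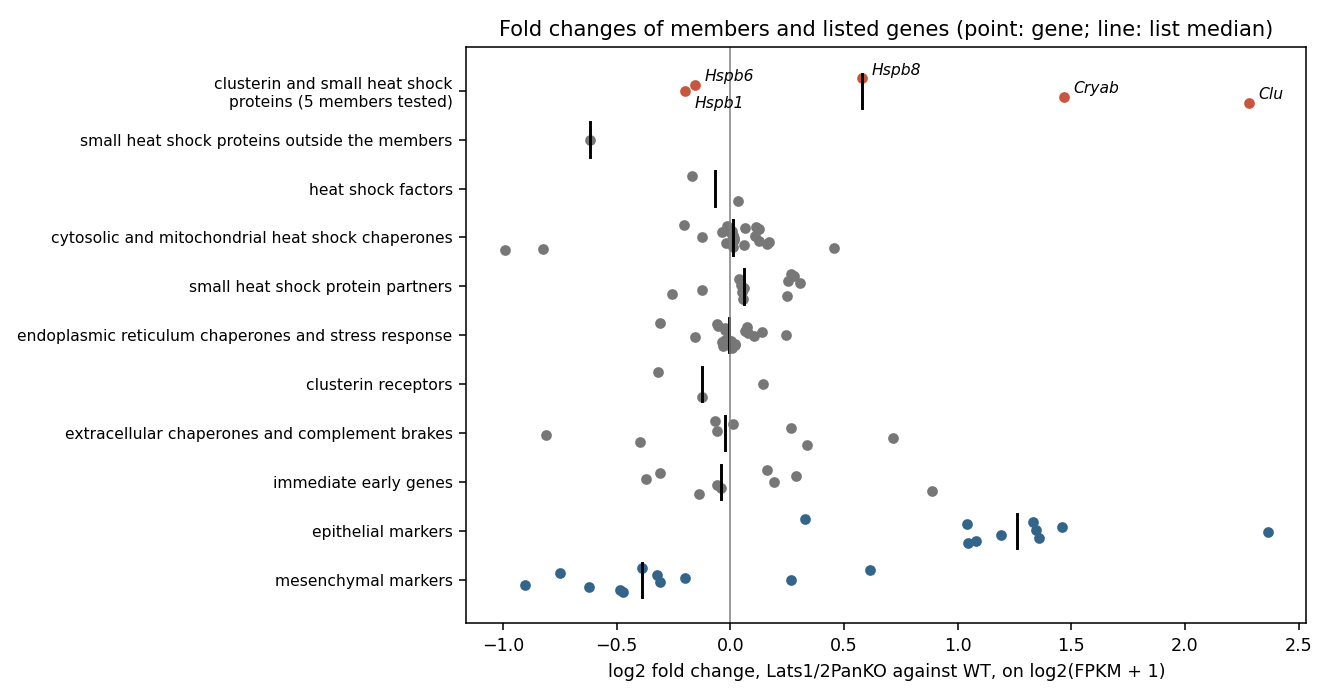
Differences of mean log2(FPKM + 1), Lats1/2PanKO minus WT, for the 5 tested members and for genes of the chaperone and stress lists and of 2 marker lists. Each point is a gene and the line is the median of its list. *Clu* at 2.28 and *Cryab* at 1.47 lie beyond every gene of the chaperone and stress lists, which reach 0.88. The members were selected on this comparison, so nothing follows from their place. The epithelial markers have a median of 1.26 and reach 2.36.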

How the data were processed

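Total RNA of 8 E11.0 pancreas buds, each an individual embryo, was sequenced in ribosome-depleted stranded libraries, and genotype and replicate came from the sample titles. The authors trimmed reads with cutadapt 1.12, aligned them with TopHat2 2.1.0 to mm10 and computed FPKM per gene with Cuffdiff 2.2.1, per the submitters' processing notes. The deposited FPKM are described in the methods as quantile normalized, but the columns do not share 1 distribution. They were used as deposited. The methods give an approximate number of reads per sample but no figure for each library, and the relative worth of a fragment was read from values under 0.3 FPKM.

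The 13777 genes whose mean over 8 libraries reached 0.5 FPKM were fitted in limma 3.58.1 (R 4.3.3). Values were log2(FPKM + 1), the variance prior followed mean expression, and p-values were adjusted after Benjamini and Hochberg at 0.05. This scale understates changes of low genes. The script was tested on simulated data. The members, the 8 chaperone and stress lists and the 12 marker lists were chosen with earlier results of these data known. Genes named are the members, the 3 genes of each chaperone or stress list with the smallest p, the 3 nearest profiles and the flanking genes of members, the most abundant gene of each marker list, and *Lats1* and *Lats2*. Others were chosen after their values were seen.

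The fit was repeated with array weights, without the variance trend, and with replicate number as blocking factor. It was also repeated on quantile-normalized and median-ratio-scaled values, with 0.1 in place of 1 as pseudocount, with the filter raised to 2 FPKM or dropped, with medians of the groups, and leaving out 1 library at a time. Division by summed epithelial markers and subtraction of their mean log2(FPKM + 1) were added after seeing the data. Coordinates are those of the table and of GENCODE (GRCm38), counted from 1, and promoter sequences are from RefSeq (GRCm38.p6). Plots used matplotlib 3.10.9 (Python 3.11.15).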

Additional observations from a re-analysis of the deposited data

Results flagged for a closer look

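Among 39 genes checked over the 5 WT libraries, 6 had 1 library far from the other 4 by Dixon's test, and in each it was WT replicate 5. *Hspb1* was not among the 6. The check did not cover every listed gene, and genes outside it also stood apart in that library. *Junb*, for example, had 9.29 FPKM there against 1.58 to 2.54 FPKM in the other WT libraries. Chance alone flags about 1 gene in 20. However, *Hspa1a* and *Hspa1b* are near-identical copies that were picked out after their values were seen, and all flags fall in the same library. The count therefore cannot be weighed against that rate. *Hspa1a* stood at 53.6 FPKM there against at most 0.298 FPKM in the other WT libraries, and *Hspa1b*, its near-identical copy, at 69.6 FPKM against at most 0.826 FPKM. *Vldlr*, a clusterin receptor gene, was also highest there, at 5.50 FPKM against 1.62 to 2.27 FPKM. *Dnajc3* was lowest there, at 13.9 FPKM against 20.4 to 23.0 FPKM, as were *Dnajb9*, at 8.43 FPKM against 10.8 to 11.7 FPKM, and *Lats2*, at 11.6 FPKM against 14.0 to 14.7 FPKM.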

How the results depend on the processing

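*Clu*, *Cryab* and *Hspb8* stayed higher in Lats1/2PanKO under every alternative run, except that subtracting the epithelial markers turned *Hspb8*. *Cryab* did not pass the minimum of 2 FPKM and has no value there. The number of genes called over all tested was 2, but 18 with a pseudocount of 0.1, 174 with array weights, 1 without the trend and 0 to 69 with 1 library left out, 69 without Lats1/2PanKO replicate 2 and 19 without replicate 3, and 0 without WT replicate 1, 2, 3 or 5. Members called, 1 in the report, were 0 with no filter or no trend, 2 (*Clu* and *Cryab*) with array weights, and 0 to 1 with 1 library left out, *Clu* being kept only without Lats1/2PanKO replicate 2 or 3. The call of *Clu* was lost in 9 of 16 alternatives. The cause was not tested. Chaperone and stress genes called were 0 in all 16. With the mean log2(FPKM + 1) of the epithelial markers subtracted in each library, which is not the division by their sum, the log2 differences were 1.03 for *Clu*, 0.21 for *Cryab*, -1.45 for *Hspb1*, -1.41 for *Hspb6* and -0.67 for *Hspb8*. The markers had higher means in the mutant libraries, so a gene of even level comes out negative on this measure. The added 1 compresses *Cryab*, which differed by 3.08 with a pseudocount of 0.1. Leaving out each library, *Hspb1* ran from -0.39 to 0.07 and *Hspb6* from -0.32 to 0.07.

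Replicate numbers showed no sign of pairing the buds, as same-numbered deviations correlated at 0.0855, -0.0969 and 0.0685 for replicates 1 to 3. These correlations cannot show whether any buds shared a litter or a dissection. With the replicate block, 1 gene was called over all and 0 members, and *Clu* differed by 2.31, *Cryab* by 1.45, *Hspb1* by 0.12, *Hspb6* by -0.11 and *Hspb8* by 0.69. The WT values of *Cryab* rest on 1 or 2 implied fragments per library, and no read number for each library is given in the sources used here.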
